A study of Homo sapiens with 2 samples.

Results

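Interferons are secreted cytokines that cells make when they sense viral or misplaced nucleic acid. Type I interferons signal through the IFNAR1 and IFNAR2 receptor chains, and type III interferons, the interferon lambdas, through IFNLR1 paired with IL10RB. The lambda receptor is expressed mainly on epithelial cells. Both receptors activate the kinases JAK1 and TYK2, which phosphorylate STAT proteins. STAT2 joins IRF9 in the complex ISGF3, which binds the interferon-stimulated response element (ISRE) in the promoters of its target genes. IRF1 and IRF7 are transcription factors that activate interferon and interferon-stimulated genes, and IRF2 competes with IRF1 at the same elements.

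The 9 genes described here were listed by name, with earlier results of these data known. They are the ligand IFNL1, the receptor chains IFNAR1, IFNAR2 and IFNLR1, the signal transducer STAT2, and the factors IRF1, IRF2, IRF7 and IRF9. All 9 were among the 62699 genes of the count table. RNA came from HCC1954, an established human breast cancer cell line with amplification of ERBB2, the gene of the HER2 receptor. There was 1 library of polyadenylated RNA with the genotype label ASO-1235 and 1 with ASO-NC, and the results are limited to this 1 cell line. The title of the ASO-1235 library has the prefix Si where the genotype has ASO, and the genotype was followed. The sources used here do not give the dose, the time after treatment or the number of cultures. The series title names the long non-coding RNA LINC01235 as the subject, and LINC01235 had 0 counts in ASO-1235 and 1337 counts in ASO-NC. Taking a floor of 3 counts for the 0, its level was 377-fold lower in ASO-1235. The exact count intervals described below put the upper limit of its ratio, ASO-1235 over ASO-NC, at 0.00326. On halved counts, in case both mates of a read pair were counted, that limit was 0.00654. Each limit allows a smaller difference than 377-fold, so 377-fold is not a lower bound.

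The ASO-1235 library held 37916307 counts and the ASO-NC library 48092494 counts. Values are CPM, the counts set to a common library size by TMM scaling, and a ratio is ASO-1235 over ASO-NC with an exact 95% interval from the counts. With 1 library in each group there was no spread between replicates to test against. No p-values are given, and the intervals cover counting error only. Even numbers made up 64.0% of counts from 1 to 1000 in ASO-1235 and 67.5% in ASO-NC, so each mate of a read pair may have been counted separately. Intervals from halved counts are therefore given too. A gene was called higher or lower at 1.5-fold when its levels differed by at least that factor, its interval excluded 1 and it had at least 1 CPM in at least 1 library. All 8 markers of breast epithelium and the ERBB2 region were at 1 CPM or more in both libraries, with summed levels of 9596 CPM in ASO-1235 and 10280 CPM in ASO-NC. Of 15 immune cell markers, ITGAM and LYZ reached 1 CPM, and the list summed to 4.38 CPM in ASO-1235 and 4.46 CPM in ASO-NC. LYZ, the lysozyme gene, was called lower, with 44 counts in ASO-1235 and 98 counts in ASO-NC, a ratio of 0.530 (0.363 to 0.764). Among genes at the level of LYZ, with means from 0.533 to 3.20 CPM, 11.3% were called lower. The myeloid integrin gene ITGAM had 72 counts in ASO-1235 and 61 counts in ASO-NC. Below 1 CPM, the macrophage gene CSF1R had 24 counts in ASO-1235 and 21 counts in ASO-NC, the T cell gene CD8A 16 counts in ASO-1235 and 19 counts in ASO-NC, and the pan-leukocyte gene PTPRC 8 counts in ASO-1235 and 0 in ASO-NC. The T cell gene CD3D, the NK cell gene NKG7 and the plasmacytoid dendritic cell genes CLEC4C and LILRA4 had 0 counts in both libraries. Of 10 fibroblast and endothelial markers, COL1A1 and VWF reached 1 CPM, and the list summed to 48.0 CPM in ASO-1235 and 53.5 CPM in ASO-NC.

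The promoter windows of the genes on which the results turn are shown here to give the sequence context of the measurements. They come from RefSeq on GRCh38.p14 and run from 250 bases before to 50 after the annotated start, 5′ to 3′ on the strand of the gene. A window was found for 6 of the 9 genes. Capitals mark matches to the ISRE core (the letters TTTC, any 2 bases, then TTTC) or to the interferon gamma-activated site (GAS) pattern TTCNNNGAA, searched on both strands. The windows shown are those of IFNL1 (chr19:39296157-39296456, plus strand), its relative IFNL3 (chr19:39245201-39245500, minus strand), IFNLR1 (chr1:24187240-24187539, minus strand), STAT2 (chr12:56360058-56360357, minus strand), IRF1 (chr5:132490724-132491023, minus strand) and IRF9 (chr14:24161015-24161314, plus strand).
IFNL1: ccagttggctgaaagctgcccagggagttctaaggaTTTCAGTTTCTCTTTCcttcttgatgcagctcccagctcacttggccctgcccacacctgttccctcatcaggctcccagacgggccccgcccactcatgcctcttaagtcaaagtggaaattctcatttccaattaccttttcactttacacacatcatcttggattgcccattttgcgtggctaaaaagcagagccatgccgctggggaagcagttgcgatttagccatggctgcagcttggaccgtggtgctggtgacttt
IFNL3: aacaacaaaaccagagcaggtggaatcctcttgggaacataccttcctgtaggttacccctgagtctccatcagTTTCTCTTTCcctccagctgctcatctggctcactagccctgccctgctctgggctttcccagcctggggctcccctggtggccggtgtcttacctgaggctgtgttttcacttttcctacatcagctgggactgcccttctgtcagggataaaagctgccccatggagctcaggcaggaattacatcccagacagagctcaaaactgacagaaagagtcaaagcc
IFNLR1: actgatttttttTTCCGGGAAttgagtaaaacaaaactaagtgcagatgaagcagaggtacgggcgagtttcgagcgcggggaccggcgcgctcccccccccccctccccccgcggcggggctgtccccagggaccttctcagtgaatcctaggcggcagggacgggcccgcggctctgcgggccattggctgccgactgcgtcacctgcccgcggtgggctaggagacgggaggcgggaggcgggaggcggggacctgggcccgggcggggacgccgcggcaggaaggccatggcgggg
STAT2: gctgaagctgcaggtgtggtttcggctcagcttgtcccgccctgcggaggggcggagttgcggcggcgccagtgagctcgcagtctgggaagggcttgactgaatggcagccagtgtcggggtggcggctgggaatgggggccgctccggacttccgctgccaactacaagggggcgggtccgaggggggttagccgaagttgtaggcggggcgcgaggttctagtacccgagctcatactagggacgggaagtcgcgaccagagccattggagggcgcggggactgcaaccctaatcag
IRF1: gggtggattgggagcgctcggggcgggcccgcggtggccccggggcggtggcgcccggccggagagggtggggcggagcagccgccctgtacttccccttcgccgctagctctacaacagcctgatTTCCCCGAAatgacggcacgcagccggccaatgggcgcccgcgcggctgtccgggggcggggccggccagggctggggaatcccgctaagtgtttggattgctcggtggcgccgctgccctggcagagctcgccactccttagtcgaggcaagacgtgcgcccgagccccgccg
IRF9: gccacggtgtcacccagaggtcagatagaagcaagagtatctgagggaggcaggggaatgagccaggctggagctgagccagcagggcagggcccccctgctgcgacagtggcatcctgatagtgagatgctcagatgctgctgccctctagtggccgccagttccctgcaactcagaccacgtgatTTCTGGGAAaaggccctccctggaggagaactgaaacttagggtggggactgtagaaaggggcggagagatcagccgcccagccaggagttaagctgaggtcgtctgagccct
The IFNL1 window held a pair of overlapping ISRE core matches, TTTCAGTTTC starting at position -214 and TTTCTCTTTC starting at -208 from the RefSeq start. The IFNL3 window held TTTCTCTTTC once, at -176, and the IFNL2 window held the same letters at the same position. The GAS pattern occurred at -124 in IRF1 (TTCCCCGAA), at -63 in IRF9 (TTCTGGGAA) and at -238 in IFNLR1 (TTCCGGGAA). The STAT2 and IFNAR1 windows held neither pattern. Over 35116 RefSeq windows of the same length, 3.57% held an ISRE core match and 7.66% a GAS match. These matches are descriptions of letters, and factor binding was not measured.

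Among the 9 genes, the ligand IFNL1 had the lowest ratio, and STAT2 came next. IFNL1 was 0.627 times its ASO-NC level in ASO-1235 and STAT2 0.728 times, while the receptor chains and IRF1, IRF2 and IRF7 had ratios from 0.894 to 1.13. IFNL1 was the only one of the 9 called at 1.5-fold, so 1 of 9 was called lower and 0 of 9 higher. Among all 14291 genes at 1 CPM, 3.33% were called lower and 5.77% higher. Of all the genes called, 63.4% were higher, and 81.3% with total count scaling. At 2-fold none of the 9 was called, against 0.616% of all genes lower and 2.19% higher. The median log2 ratio of the 9 genes was 0.06, and that of all 14291 genes was -0.02, with quartiles of -0.21 and 0.19. The ratio was below 1 for 4 of the 9 genes and for 52.5% of all genes. Regardless of size, the interval lay below 1 for IFNL1 and STAT2, 2 of 9 against 32.1% of all genes, and above 1 for IRF2 and IRF7, 2 of 9 against 27.5% of all genes. A single call among 9 genes is no result about the list, and the members are described separately.

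**Figure D1:**
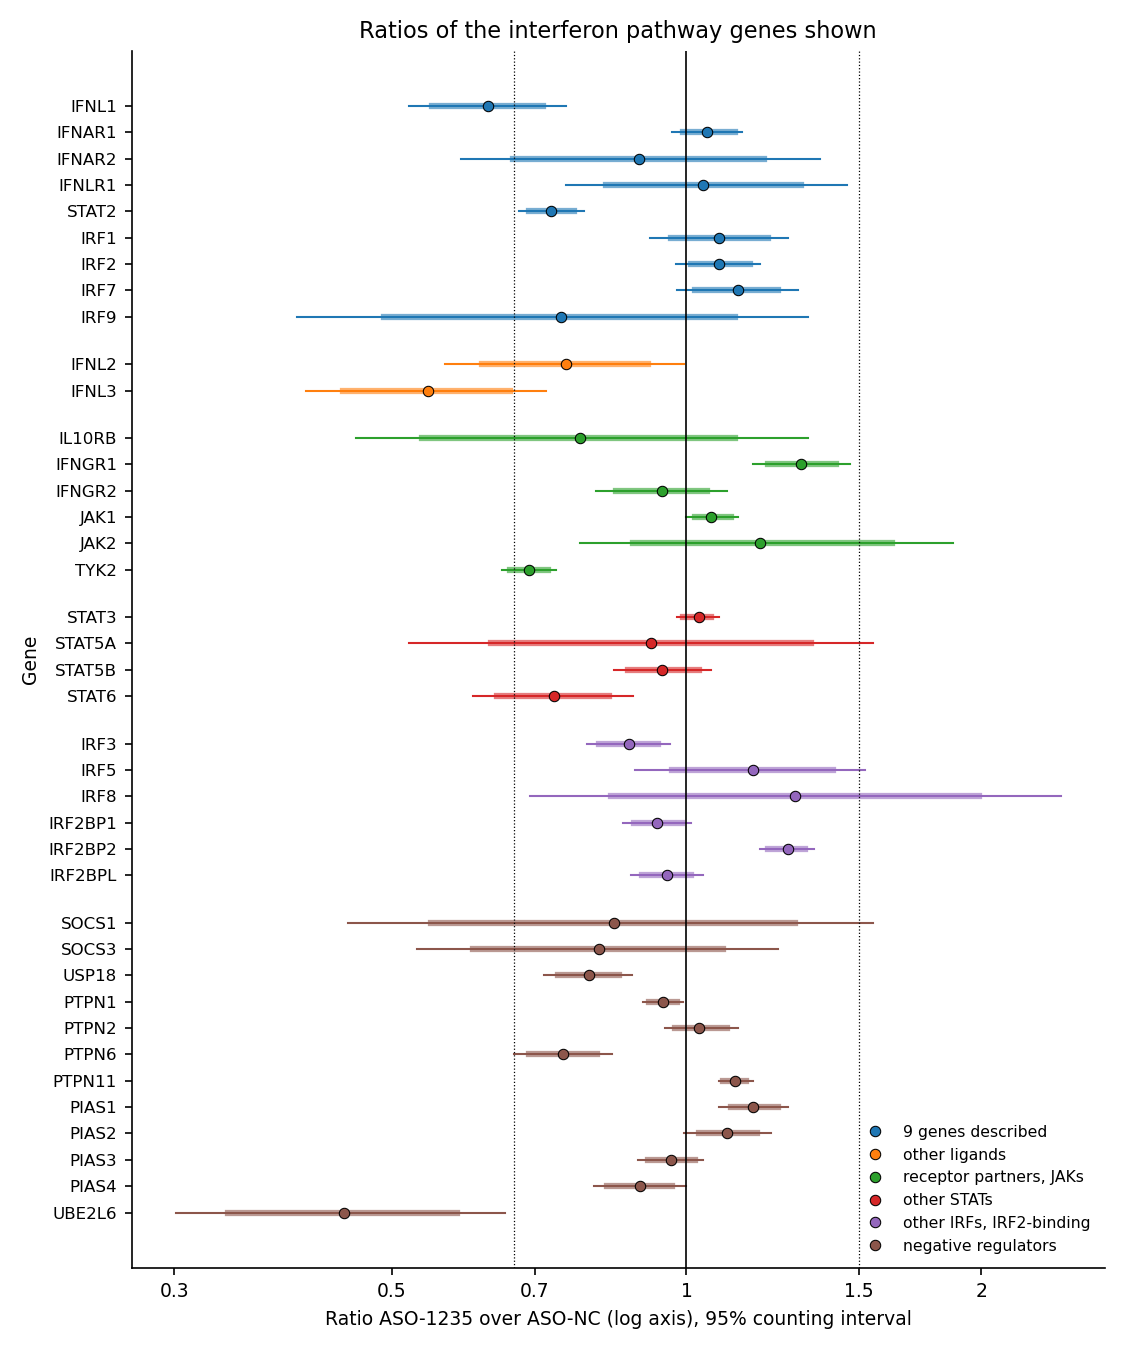
Ratios of ASO-1235 over ASO-NC (log axis) for the 9 genes and most related genes at 1 CPM or more, with 95% counting intervals from the counts as deposited (thick bars) and from halved counts (thin bars). Dotted lines mark 1.5-fold; IFNL1 and STAT2 lie below 1 with both intervals, while the thin bars of the other 7 genes include 1.

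**Figure D2:**
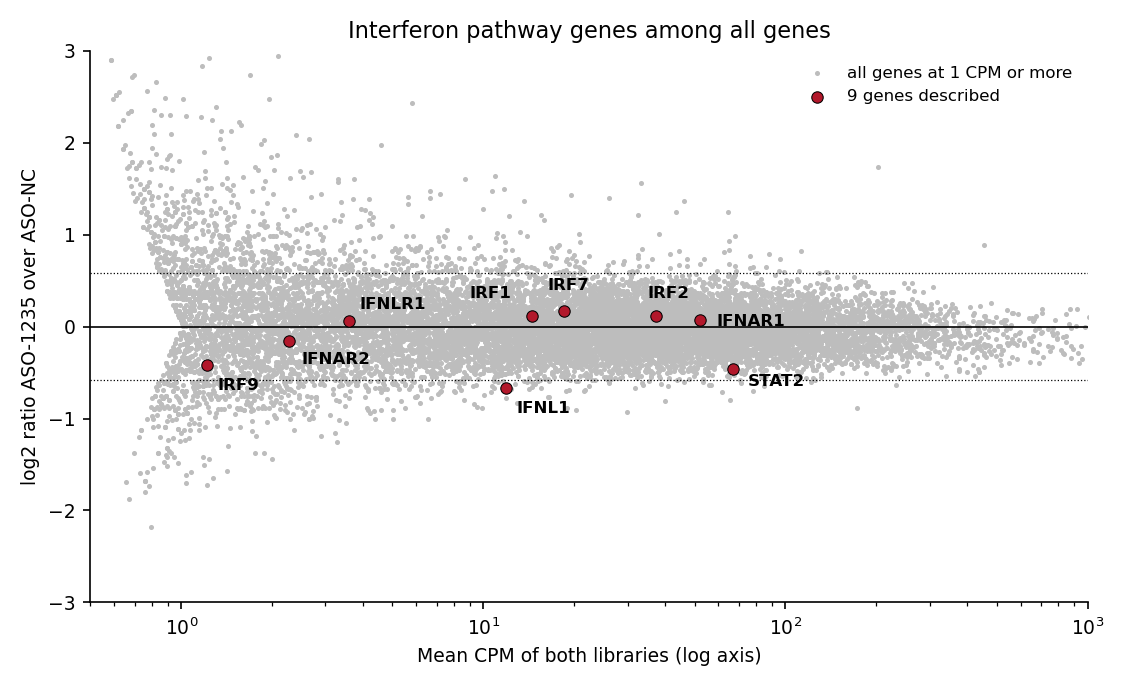
Log2 ratio of ASO-1235 over ASO-NC against the mean CPM of both libraries (log axis) for genes at 1 CPM or more, with the 9 genes in red. Dotted lines mark 1.5-fold, 63 genes beyond the axes are not drawn, and IFNL1 is the red point below the lower dotted line.

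IFNL1 encodes interferon lambda 1, the type III interferon that acts on epithelial cells. The gene (ENSG00000182393, 1 transcript of 857 exon bases, GENCODE 29 on GRCh38) lies on the plus strand of chromosome 19 from 39296325 to 39298673, and none of its exon bases are shared with another annotated gene. It had 360 counts in ASO-1235 and 678 counts in ASO-NC, which is 9.16 CPM in ASO-1235 and 14.6 CPM in ASO-NC. The ratio was 0.627, with an interval of 0.550 to 0.714 and of 0.521 to 0.754 on halved counts. Of all genes tested, 2.35% had a ratio at or below it. Among genes of similar level, with means from 3.20 to 12.1 CPM, 3.64% were called lower.

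The size of the IFNL1 difference depended on scaling. The ratio was 0.673 with total count scaling and 0.715 after removal of the trend with GC content and transcript length, and under both it no longer reached 1.5-fold, although the interval stayed below 1. Total count scaling moved the median log2 ratio of all genes to 0.08. The trend with GC content and length gave -0.19 on the log2 scale for a transcript like IFNL1, with 56.5% GC against a median of 48.2% over the genes tested. The part of base composition and transcript length in the ratio was not tested.

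The other interferon ligands were mostly at 0. Of 21 other ligand genes listed, covering the type I, II and III families, 17 had 0 counts in both libraries, where a count of 0 allows up to 0.0764 CPM in ASO-1235 and 0.0646 CPM in ASO-NC. IFNB1, interferon beta, had 24 counts in ASO-1235 and 22 counts in ASO-NC, and was under 1 CPM in both. IFNL2 and IFNL3 were the 2 that reached 1 CPM. IFNL3 had 152 counts in ASO-1235 and 330 counts in ASO-NC, with a ratio of 0.544 (0.446 to 0.661, halved counts 0.409 to 0.718), and was called lower. IFNL2 had 172 counts in ASO-1235 and 270 counts in ASO-NC, with a ratio of 0.753 (0.618 to 0.914, halved counts 0.567 to 0.994). The promoter windows of IFNL2 and IFNL3 differ at 1 of 300 positions, and the likeness of their exons was not measured here. The 2 genes are known as near-identical copies, so the split of reads between IFNL2 and IFNL3 is uncertain. Summing IFNL1 to IFNL4 avoids that split. How reads matching both copies were counted is not known here. Had they been left out, the sum would miss them and the IFNL1 share would be too high. The sum was 17.5 CPM in ASO-1235 and 27.6 CPM in ASO-NC, a ratio of 0.633 (0.576 to 0.695, halved counts 0.554 to 0.723). IFNL1 made up 52.5% of this sum in ASO-1235 and 53.0% in ASO-NC, while the sum was lower in ASO-1235.

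**Figure D3:**
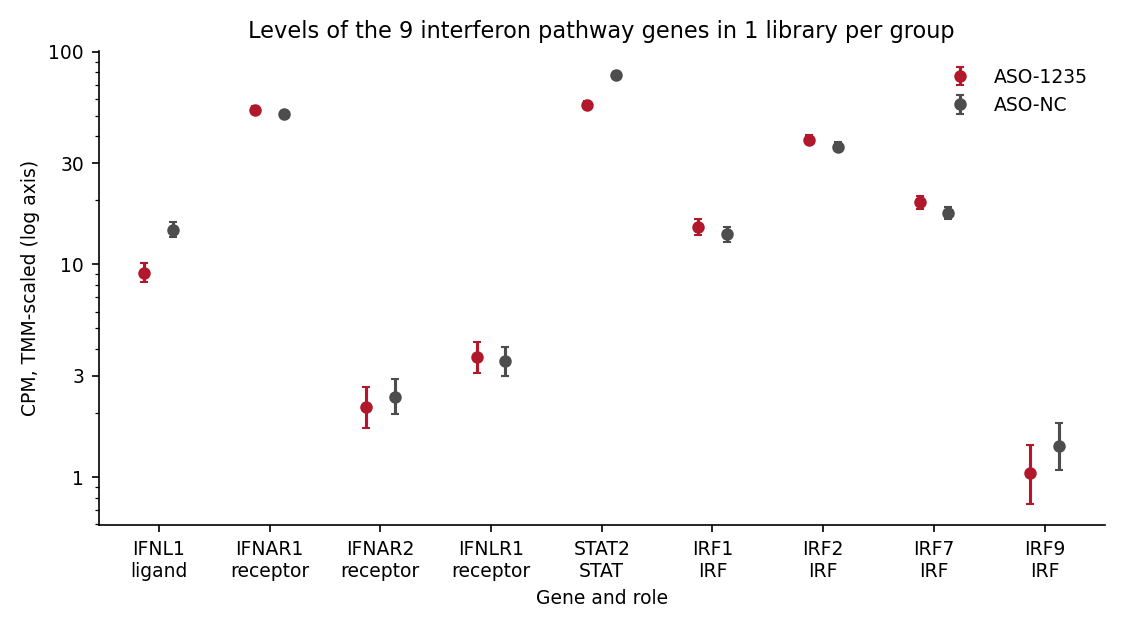
Level of each of the 9 genes in CPM (log axis) in the ASO-1235 and ASO-NC libraries, with 95% intervals for each library. Intervals do not overlap for IFNL1 (9.16 CPM in ASO-1235, 14.6 CPM in ASO-NC) or STAT2 (56.5 CPM in ASO-1235, 77.6 CPM in ASO-NC). The IRF9 points (1.04 CPM in ASO-1235, 1.40 CPM in ASO-NC) also stand apart, but their intervals overlap. The points of the receptor chains are close.

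The receptor chains were close between the libraries. IFNAR1, the type I receptor chain that binds TYK2, is encoded on chromosome 21 from 33324477 to 33359862 on the plus strand. It had 2102 counts in ASO-1235 and 2360 counts in ASO-NC, or 53.5 CPM in ASO-1235 and 50.8 CPM in ASO-NC. Its ratio of 1.05 had an interval of 0.992 to 1.12, so at this depth a difference of 1.5-fold between these libraries would lie well outside it. Its direction was not fixed: the log2 ratio was 0.07 with the main scaling, 0.18 with total counts and -0.07 after removal of the GC content and length trend.

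IFNLR1, the lambda-specific chain, is on the minus strand of chromosome 1 from 24154157 to 24187959. It had 144 counts in ASO-1235 and 163 counts in ASO-NC, or 3.67 CPM in ASO-1235 and 3.51 CPM in ASO-NC. The ratio was 1.04 with an interval of 0.828 to 1.31, and of 0.754 to 1.46 on halved counts. The proportion of ligand to receptor chain was compared within each library. IFNL1 had 2.50 counts for each count of IFNLR1 in ASO-1235 (2.06 to 3.05) and 4.16 in ASO-NC (3.50 to 4.97), and the intervals did not overlap. On halved counts they were 1.89 to 3.33 in ASO-1235 and 3.28 to 5.40 in ASO-NC, which overlap slightly. This within-library ratio does not depend on how the libraries are scaled to each other.

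IFNAR2, the type I receptor chain that binds JAK1, is on the plus strand of chromosome 21 from 33229901 to 33265675. It had 84 counts in ASO-1235 and 111 counts in ASO-NC, or 2.14 CPM in ASO-1235 and 2.39 CPM in ASO-NC. The ratio was 0.894 with an interval of 0.665 to 1.20, so a difference within that range was not detectable at this depth. Of its 4614 annotated exon bases, 83.2% are also exonic in another gene: 2038 bases in the readthrough gene IFNAR2-IL10RB on the same strand and 1803 bases in IL10RB-DT on the opposite strand. IFNAR2-IL10RB had 0 counts in ASO-1235 and 1 count in ASO-NC, and IL10RB-DT had 2 counts in ASO-1235 and 9 counts in ASO-NC. How reads in shared exons were assigned is not given in the sources used here, so the IFNAR2 counts may hold only part of its reads, and its level is uncertain.

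**Figure D4:**
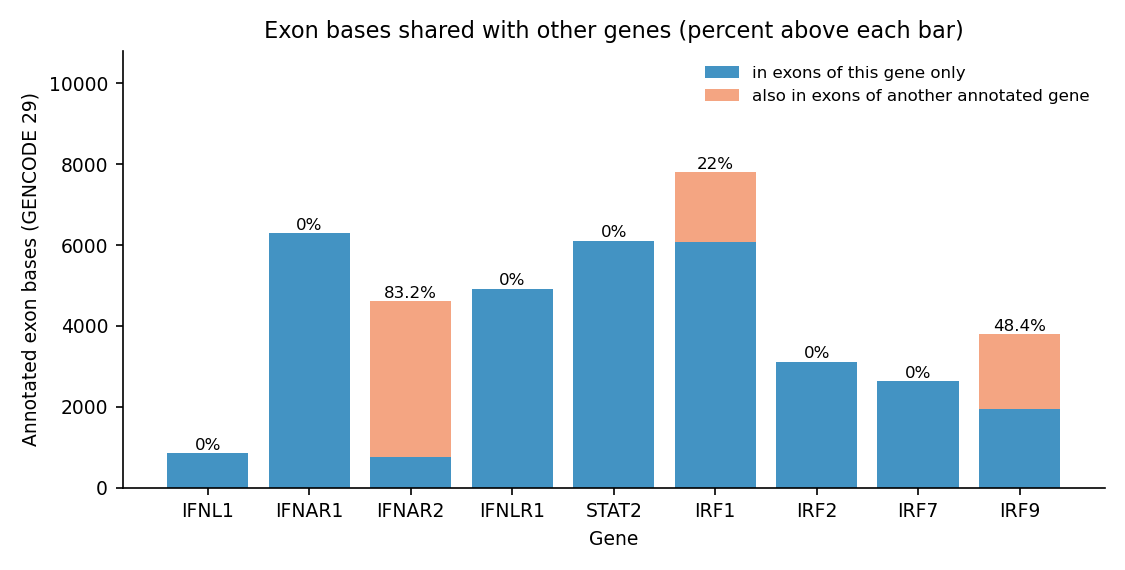
Annotated exon bases of each of the 9 genes in GENCODE 29, split into bases in exons of that gene only and bases also in exons of another gene, with the shared percent above each bar. Sharing is 83.2% for IFNAR2, 48.4% for IRF9 and 22.0% for IRF1, and 0 for the other 6 genes.

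The remaining chains and kinases of these receptors were not called, 0 of 6 in either direction, against 3.33% of all genes lower and 5.77% higher. IL10RB, the shared chain of the lambda receptor, had 52 counts in ASO-1235 and 79 counts in ASO-NC, with a ratio of 0.778 (0.537 to 1.12), and 38.1% of its exon bases are shared with other genes. IFNGR1, the ligand-binding chain of the interferon gamma receptor, had 1296 counts in ASO-1235 and 1166 counts in ASO-NC, a ratio of 1.31 (1.21 to 1.42). The kinases differed from each other. TYK2 had 3066 counts in ASO-1235 and 5244 counts in ASO-NC, with a ratio of 0.691 (0.660 to 0.722), and JAK1 had 4312 counts in ASO-1235 and 4783 counts in ASO-NC, with a ratio of 1.06 (1.02 to 1.11). TYK2 thus had 0.711 counts per JAK1 count in ASO-1235 (0.679 to 0.745) and 1.10 in ASO-NC (1.05 to 1.14). JAK2, which serves the interferon gamma receptor, had a ratio of 1.19 (0.881 to 1.62).

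STAT2, the ISGF3 subunit that carries its transactivation domain, is on the minus strand of chromosome 12 from 56341597 to 56360155. It had 2220 counts in ASO-1235 and 3600 counts in ASO-NC, or 56.5 CPM in ASO-1235 and 77.6 CPM in ASO-NC. The ratio was 0.728, with an interval of 0.691 to 0.768 and of 0.675 to 0.786 on halved counts. This is short of 1.5-fold, and STAT2 was not called. Of all genes tested, 6.70% had a ratio at or below it. Its log2 ratio ran from -0.47 to -0.35 over all settings tried. STAT2 had 1.06 counts per IFNAR1 count in ASO-1235 (0.995 to 1.12) and 1.53 in ASO-NC (1.45 to 1.61), and these intervals did not overlap.

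Among the other STATs none of the 5 at 1 CPM was called, where 3.33% of all genes were called lower and 5.77% higher. Their median log2 ratio was -0.12, against -0.02 for all genes. STAT6, which serves interleukin 4 signalling, had a ratio of 0.732 (0.641 to 0.834). STAT3, which serves interleukin 6 family cytokines, had a ratio of 1.03 (0.993 to 1.06), and STAT5B, a prolactin and growth hormone effector, 0.945 (0.872 to 1.03).

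IRF9, the DNA-binding subunit of ISGF3, had the lowest counts of the 9 genes. It is on the plus strand of chromosome 14 from 24161053 to 24166565 and had 41 counts in ASO-1235 and 65 counts in ASO-NC, or 1.04 CPM in ASO-1235 and 1.40 CPM in ASO-NC. The ratio of 0.745 had an interval of 0.491 to 1.12, and 0.400 to 1.33 on halved counts, so no difference was detectable at this depth. Of its 3794 exon bases, 1838 are also exonic in a readthrough gene on the same strand (ENSG00000259529) that had 2 counts in each library. As for IFNAR2, the counts may miss reads of the shared exons. Per kilobase of unshared exon, IRF9 had 0.534 CPM in ASO-1235 and 0.716 CPM in ASO-NC.

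IRF1, IRF2 and IRF7 each had a ratio slightly above 1. IRF1, on the minus strand of chromosome 5 from 132481609 to 132490798, had 589 counts in ASO-1235 and 644 counts in ASO-NC, or 15.0 CPM in ASO-1235 and 13.9 CPM in ASO-NC. Its ratio of 1.08 had an interval of 0.965 to 1.21. Its exons overlap 1716 bases of the antisense gene IRF1-AS1, which had 97 counts in ASO-1235 and 119 counts in ASO-NC. The counting strand is not given in the sources used here, so reads of IRF1 and IRF1-AS1 in the overlap cannot be told apart.

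IRF2, on the minus strand of chromosome 4 from 184387713 to 184474580, had 1516 counts in ASO-1235 and 1660 counts in ASO-NC, or 38.6 CPM in ASO-1235 and 35.8 CPM in ASO-NC. The ratio was 1.08 with an interval of 1.01 to 1.16, and of 0.976 to 1.19 on halved counts, which includes 1. The activator IRF1 and its competitor IRF2 stood in proportions that differed by less than the counting error. IRF1 had 0.389 counts per IRF2 count in ASO-1235 (0.353 to 0.428) and 0.388 in ASO-NC (0.354 to 0.425).

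IRF7, the factor known for amplifying type I interferon production, is on the minus strand of chromosome 11 from 612553 to 615999. It had 772 counts in ASO-1235 and 810 counts in ASO-NC, or 19.6 CPM in ASO-1235 and 17.5 CPM in ASO-NC. Its ratio of 1.13 had an interval of 1.02 to 1.24, and of 0.977 to 1.30 on halved counts, which includes 1. After removal of the GC content and length trend the ratio was 1.29, the largest change that any setting made to IRF7, which has 66.8% GC. IRF7 had 0.535 counts per count of IRF3, the factor that starts type I interferon transcription, in ASO-1235 (0.490 to 0.585) and 0.415 in ASO-NC (0.382 to 0.451). IRF7 is itself a known interferon-stimulated gene.

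None of the 7 other IRF and IRF2-binding protein genes at 1 CPM was called, where 3.33% of all genes were called lower and 5.77% higher. Their median log2 ratio was 0.22, against -0.02 for all genes. IRF3 had 1442 counts in ASO-1235 and 1951 counts in ASO-NC, with a ratio of 0.873 (0.815 to 0.935). The co-repressor IRF2BP2 had 106 CPM in ASO-1235 and 83.9 CPM in ASO-NC, a ratio of 1.27 (1.21 to 1.32). IRF5 had a ratio of 1.17 (0.966 to 1.41), and IRF8, at 48 counts in ASO-1235 and 44 counts in ASO-NC, of 1.29 (0.838 to 1.99). IRF4, a lymphoid factor, had 0 counts in both libraries.

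Levels of different genes were compared as CPM per kilobase of annotated exon, which assumes that all annotated exons are used. In ASO-1235 the order ran from IRF2 (12.4 CPM per kilobase), IFNL1 (10.7), STAT2 (9.25), IFNAR1 (8.49) and IRF7 (7.48) to IRF1 (1.92), IFNLR1 (0.745), IFNAR2 (0.463) and IRF9 (0.275). In ASO-NC it ran from IFNL1 (17.0 CPM per kilobase), STAT2 (12.7), IRF2 (11.5), IFNAR1 (8.07) and IRF7 (6.64) to IRF1 (1.78), IFNLR1 (0.713), IFNAR2 (0.518) and IRF9 (0.369). By halved-count intervals, each of the 5 highest genes in ASO-1235 overlapped its neighbour in this order. In ASO-NC, IFNL1 stood clear of STAT2, while STAT2 overlapped IRF2. In both libraries IFNLR1 overlapped IFNAR2 and IFNAR2 overlapped IRF9. This order divides by all exon bases, and reads in shared exons may not have been counted. Per kilobase of unshared exon, IFNAR2 had 2.77 CPM in ASO-1235 and 3.09 CPM in ASO-NC, above IRF1 (2.46 in ASO-1235, 2.28 in ASO-NC) and IFNLR1. IRF9 had 0.534 CPM in ASO-1235 and 0.716 CPM in ASO-NC on that measure. The places of IFNAR2 and IRF9 in the order are therefore uncertain. The short IFNL1 transcript thus ranked among the highest of the 9 genes per kilobase, although in CPM it was below STAT2, IFNAR1, IRF2 and IRF7 in both libraries.

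Of the 33 targets of ISGF3 at 1 CPM, 26 had a ratio below 1 and 7 a ratio above 1. At 1.5-fold, 10 were called lower and 0 higher, where 3.33% of all genes were called lower and 5.77% higher, and the list's median log2 ratio was -0.35, against -0.02 for all genes. The ubiquitin-like modifier ISG15 had 553 counts in ASO-1235 and 1228 counts in ASO-NC, with a ratio of 0.532 (0.480 to 0.589). IFI6, a mitochondrial antiviral protein, had a ratio of 0.539 (0.521 to 0.558), IFI44L 0.524 (0.482 to 0.570) and IFITM1, a membrane protein that hinders viral entry, 0.436 (0.326 to 0.577). The other 6 called were XAF1 at 0.366, IFI35 at 0.586, IFITM3 at 0.616, MX1 at 0.652, BST2 at 0.654 and IFITM2 at 0.658. XAF1 had 26 counts in ASO-1235 and 84 counts in ASO-NC, and reached 1 CPM in ASO-NC only. Among genes at the level of XAF1, IFITM1 and IFITM2, with means from 0.533 to 3.20 CPM, 11.3% were called lower. On halved counts 9 targets were called, since the IFITM2 interval then ran from 0.420 to 1.02. The count was 11 with DESeq2 size factors. It was 7 with total count scaling, 7 with a minimum of 5 CPM and 7 after removal of the GC content and length trend. Others did not differ by this size: IFIT2 had a ratio of 1.04 (0.992 to 1.10), RSAD2 1.04 (0.955 to 1.13), and OASL 1.18 (1.10 to 1.27). Uncalled targets with lower ratios included HERC6 at 0.671 (0.645 to 0.698), IFIT1 at 0.681 (0.649 to 0.715) and OAS1 at 0.689 (0.640 to 0.741). Regardless of size, the interval lay below 1 for 20 of the 33 and above 1 for 2, against 32.1% and 27.5% of all genes. Intervals are narrower for genes at higher levels, and these shares of all genes were not matched for level. The target genes and the 9 genes were chosen with results of these data known, so these counts are a description.

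Of 17 IRF1 target genes at 1 CPM, 5 were called lower and 0 higher, against 3.33% and 5.77% of all genes. The list's median log2 ratio was -0.30, against -0.02 for all genes. The 5 called were the class I regulator NLRC5 (0.576, 0.493 to 0.671), the immunoproteasome genes PSMB8 (0.587, 0.444 to 0.771) and PSMB10 (0.562, 0.467 to 0.674), HLA-B (0.667, 0.624 to 0.712) and HLA-F (0.302, 0.146 to 0.577). Another immunoproteasome gene of the list, PSMB9, went the other way and was not called. It had 105 counts in ASO-1235 and 92 counts in ASO-NC, a ratio of 1.35 (1.01 to 1.80, halved counts 0.881 to 2.03). HLA-F had 12 counts in ASO-1235 and 47 counts in ASO-NC, and reached 1 CPM in ASO-NC only. Among genes at the level of HLA-F and PSMB8, with means from 0.533 to 3.20 CPM, 11.3% were called lower. The chemokine CXCL10 had 979 counts in ASO-1235 and 1182 counts in ASO-NC, a ratio of 0.978 (0.898 to 1.07). CXCL9 had 1.14 (0.994 to 1.31), the peptide transporter TAP1 1.11 (1.02 to 1.21, halved counts 0.980 to 1.26) and the guanylate-binding protein GBP2 1.06 (0.975 to 1.15). Other uncalled targets were lower, among them HLA-C at 0.689 (0.673 to 0.705), HLA-E at 0.703 (0.642 to 0.769) and B2M at 0.756 (0.733 to 0.779). Of the 17, 11 had a ratio below 1 and 6 a ratio above 1. Regardless of size, the interval lay below 1 for 10 and above 1 for 2, against 32.1% and 27.5% of all genes, again not matched for level. IRF1 itself had a ratio of 1.08 (0.965 to 1.21). The count of called IRF1 targets was 4 with upper quartile scaling, with TMM over genes at 1 CPM and after removal of the GC content and length trend. It was 3 with total count scaling and 3 with a minimum of 5 CPM.

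**Figure D5:**
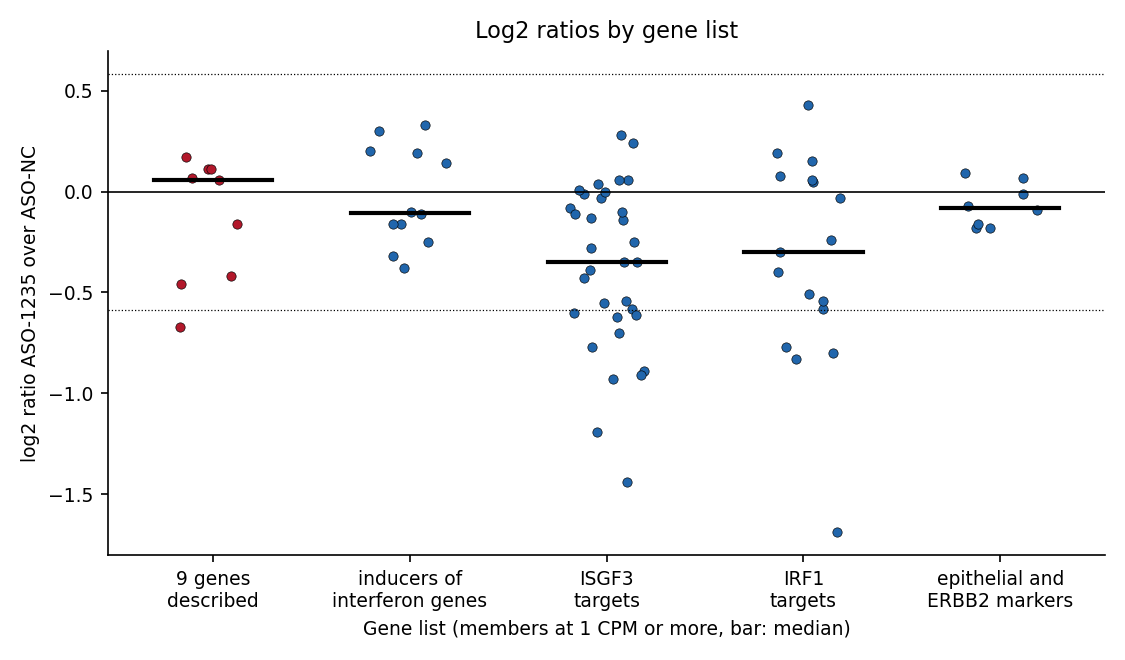
Log2 ratios of ASO-1235 over ASO-NC for genes at 1 CPM or more in 5 lists (points) with each list's median (bar), and dotted lines at 1.5-fold. The medians are 0.06 for the 9 genes, -0.11 for the inducers, -0.35 for the ISGF3 targets, -0.30 for the IRF1 targets and -0.08 for the epithelial and ERBB2 markers.

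Of 12 negative regulators, 1 was called lower and 0 higher, where 3.33% of all genes were called lower and 5.77% higher. Their median log2 ratio was -0.12, against -0.02 for all genes. A single call among 12 genes is no result about the list. The gene called was UBE2L6, an interferon-induced enzyme that conjugates ISG15 to proteins and is not itself known as an inhibitor of the receptors or kinases. It had 78 counts in ASO-1235 and 206 counts in ASO-NC, with a ratio of 0.447 (0.340 to 0.583), and falls below a minimum of 5 CPM. USP18, which removes ISG15 and blocks IFNAR2 signalling, had 1245 counts in ASO-1235 and 1851 counts in ASO-NC, with a ratio of 0.795 (0.739 to 0.854). The phosphatase PTPN6 had a ratio of 0.748 (0.690 to 0.811) and PTPN11 1.12 (1.09 to 1.15). SOCS1 and SOCS3, inhibitors of JAK kinases, had ratios of 0.844 (0.548 to 1.29) and 0.815 (0.605 to 1.09).

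None of the 12 genes at 1 CPM that induce interferon transcription was called, where 3.33% of all genes were called lower and 5.77% higher. Their median log2 ratio was -0.11, against -0.02 for all genes. After removal of the GC content and length trend 1 was called lower, TLR3, whose log2 ratio was -0.62 there and -0.38 with the main scaling. The RNA sensor IFIH1 had a ratio of 0.893 (0.849 to 0.939), RIGI 1.23 (0.919 to 1.65), the adaptor MAVS 0.933 (0.908 to 0.959), the kinase TBK1 1.10 (1.04 to 1.16) and the endosomal sensor TLR3, at 90 counts in ASO-1235 and 139 counts in ASO-NC, 0.765 (halved counts 0.517 to 1.14). TRAF6, an adaptor of Toll-like receptors, had 1160 counts in ASO-1235 and 1090 counts in ASO-NC, with a ratio of 1.26 (1.16 to 1.37). NFKB1 had a ratio of 1.15 (1.07 to 1.23) and RELA 0.898 (0.869 to 0.927), and both encode subunits of NF-kB, which binds interferon promoters. The part of any of these genes in the IFNL1 or STAT2 values was not tested.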

How the data were processed

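Polyadenylated RNA was sequenced in 1 library of HCC1954 cells labelled ASO-1235 and 1 labelled ASO-NC. Raw counts were deposited, 1 column for each library, as whole numbers, and no scaling by the authors shows in them. Per the submitters' processing notes, the tools were STAR 2.7.11a and featureCounts 2.0.6 and the build hg38. Annotation release and counting strand are not stated there. All 62699 gene IDs with counts matched a name, and 3 lines without counts were left out. Gene positions and exon lengths came from GENCODE 29 on GRCh38, and promoter windows from RefSeq on GRCh38.p14. Protein sequences were not used here.

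Libraries were scaled with TMM over all genes of the table (edgeR 4.0.16 in R 4.3.3, used for scaling alone), with factors of 1.04 for ASO-1235 and 0.965 for ASO-NC. Ratios had exact Clopper-Pearson 95% intervals given the sum of both counts, and levels in CPM exact Poisson intervals. A prior count of 0.5 entered log2 ratios. A gene had to reach 1 CPM in at least 1 library. Reads copied by PCR carry no molecular identifiers here, so intervals and floors cover counting error only. The calculation was tested on simulated data. Alternatives were DESeq2 1.42.0 size factors, upper quartile and total count scaling, TMM without mitochondrial genes, halved counts, no minimum, a minimum of 5 CPM, a prior count of 5, and removal of a trend with GC content and transcript length (known for 97.7% of genes, statsmodels 0.14.6). TMM over genes at 1 CPM was added after seeing the data. Ratios and intervals were computed in Python 3.11.15 with scipy 1.17.1, and tables with pandas 2.3.3 and numpy 2.4.6.

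The named genes are the 9 members, the genes called at 1.5-fold in related lists, the STAT, IRF, kinase, receptor-chain and negative-regulator genes at 1 CPM, LINC01235, and neighbours of the members within 20000 bases. Of these, some are given only in counts, and a few genes of the lists are not reported here. Uncalled targets and inducers, and the pairs compared within a library, were named after their values were seen. The members and lists were chosen with earlier results of these data known.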

Additional observations from a re-analysis of the deposited data

How the results depend on the processing

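No paired analysis was possible because each group has 1 library and the labels carry no shared replicate numbers. The number of the 9 genes called lower at 1.5-fold was 1, and it was 0 with total count scaling and 0 after removal of the GC content and length trend, both through IFNL1. Over all genes, 825 were called higher and 476 lower. Without a minimum level the counts were 2288 higher and 1161 lower, and with a minimum of 5 CPM 242 higher and 128 lower, since fewer genes are tested. With total count scaling 1519 were called, 81.3% of them higher and 284 lower. The GC content and length correction added 1 call among the inducers of interferon genes, TLR3. Over all settings the log2 ratio ran from -0.68 to -0.48 for IFNL1 and from -0.47 to -0.35 for STAT2. IFNAR1 ran from -0.07 to 0.18, and the other 8 genes kept their sign. Counting depth limits IFNAR2, IFNLR1 and IRF9 most, and no setting replaces a replicate library.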

Other observations

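Of the annotated neighbours of the 9 genes, IL23A was called higher and IRF2-DT lower at 1.5-fold, where 5.77% of all genes were called higher and 3.33% lower. Many of the neighbours had few or no counts, and 1 call each way is no result about the neighbours. IL23A, a cytokine subunit gene 1187 bases from STAT2 on the opposite strand, had 48 counts in ASO-1235 and 17 counts in ASO-NC, a ratio of 3.34 (1.88 to 6.19, halved counts 1.54 to 9.13). It reached 1 CPM in ASO-1235 only, the library where it was higher. Among genes of similar level, with means from 0.533 to 3.20 CPM, 19.1% were called higher. PAN2, 7544 bases from STAT2, had 2040 counts in ASO-1235 and 2528 counts in ASO-NC, a ratio of 0.953 (0.899 to 1.01). APOF, 414 bases from STAT2, had 0 counts in ASO-1235 and 14 counts in ASO-NC.

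IRF2-DT, a divergent transcript 222 bases from IRF2, had 76 counts in ASO-1235 and 136 counts in ASO-NC, a ratio of 0.660 (0.492 to 0.880, halved counts 0.432 to 0.996), while IRF2 itself was at 1.08. Among genes at the level of IRF2-DT, with means from 0.533 to 3.20 CPM, 11.3% were called lower. PHRF1, 331 bases from IRF7 on the opposite strand, had 592 counts in ASO-1235 and 808 counts in ASO-NC, a ratio of 0.866 (0.777 to 0.964, halved counts 0.742 to 1.01). Near IRF9, the proteasome activator gene PSME2 had 3525 counts in ASO-1235 and 5432 counts in ASO-NC, a ratio of 0.767 (0.735 to 0.800), and REC8, a cohesin subunit gene, had 616 counts in ASO-1235 and 1043 counts in ASO-NC, a ratio of 0.698 (0.631 to 0.772).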
